A study of Mus musculus with 12 samples.

Results

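Reads whose first base lay away from the usual start of their miRNA were examined in small RNA libraries of mouse blood cell development. The sequences were chosen by their read counts and positions: a sequence was a member when the Position listed for it in a library's mature miRNA table differed from the most common Position of that library by reads, and when it had at least 10 reads. There were 2820 such entries (a miRNA name with a sequence, in a library) among 187526 entries of the 12 mature tables, beside 35508 entries of at least 10 reads at the common Position. Members were most numerous in DN3 (517), CD4SP (363), DN1 (357) and CD8SP (317), then ProB (240), MPP (229), LSK (211), DN2 (205) and LMPP (164), and fewest in MEF (96), DP (84) and DN4 (37). All entries numbered 55536 in DN3, 16422 in CD4SP, 18521 in DN1, 14548 in CD8SP, 13312 in ProB and 14086 in MPP. They numbered 14005 in LSK, 13290 in DN2, 11636 in LMPP, 6491 in MEF, 6584 in DP and 3095 in DN4. The number of members past a fixed minimum depends on depth, so the order of the counts is not an order of shares. Because reads and positions chose them, the shares below describe these libraries and carry no test.

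All cells came from C57BL/6 mice, with 1 library per population, so no difference between populations has a replicate check. The bone marrow populations were LSK (Lineage-, Sca+, cKit+), MPP (LSK that were CD135+ and CD106+), LMPP (LSK that were CD135+ and CD106-) and ProB (B220+, IgM-, CD43hi). The thymic populations were DN1 (CD4-, CD8-, CD3-, CD90+, CD44+, CD25-), DN2 (CD44+, CD25+), DN3 (CD44-, CD25+), DN4 (CD3lo, CD44-, CD25-), DP (CD4+, CD8+, CD3lo, CD90+), CD4SP (CD4+, CD8-, CD3hi, CD90+, CD24lo) and CD8SP (CD4-, CD8+, CD3hi, CD90+, CD24lo). MEF were fibroblasts of embryonic day 14.5. The sources used here state neither the adults' ages nor whether animals were pooled.

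A miRNA is cut from a hairpin by the RNases Drosha and Dicer: Drosha sets the 5′ end of a miRNA on the 5′ arm, and Dicer that of a miRNA on the 3′ arm. Argonaute then uses bases 2 to 8 of the miRNA, the seed, to find target mRNAs. A cut moved by 1 base gives a 5′ isoform with another seed, whereas variation at the 3′ end leaves the seed as it was. The asterisk in a name such as miR-140* marks the strand of the duplex that was first taken for the minor one.

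The sequences below show what a shifted start does to the seed. Each is the most abundant deposited read of its start that matched the mouse hairpin without mismatch in DN3, the library whose common Position is base 1. Capitals mark bases 2 to 8.
miR-142-5p at base 1: cATAAAGTagaaagcactact
miR-142-5p, 2 bases upstream: cCCATAAAgtagaaagcactac
miR-126-3p at base 1: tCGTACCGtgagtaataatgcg
miR-126-3p, 1 base downstream: cGTACCGTgagtaataatgcg
miR-10a at base 1: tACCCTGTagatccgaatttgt
miR-10a, 1 base downstream: aCCCTGTAgatccgaatttgt
miR-140* at base 1: tACCACAGggtagaaccacgg
miR-140*, 1 base downstream: aCCACAGGgtagaaccacgga
miR-425* at base 1: aTCGGGAAtgtcgtgtccgc
miR-425*, 1 base upstream: cATCGGGAatgtcgtgtccgc
miR-101b at base 1: tACAGTACtgtgatagctgaag
miR-101b, 1 base upstream: gTACAGTActgtgatagctga
miR-106a at base 1: cAAAGTGCtaacagtgcaggtag
miR-106a, 1 base downstream: aAAGTGCTaacagtgcaggtag

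On the mouse genome (GRCm38, RefSeq hairpins, GENCODE M21 genes) the miR-142 hairpin lies at chr11:87756864-87756927 on the plus strand, in an intron of the lincRNA gene Mir142hg. The miR-126 hairpin lies at chr2:26591357-26591429 (plus), within exon sequence of a transcript of Egfl7, and the miR-140 hairpin at chr8:107551244-107551313 (plus), within exon sequence of a transcript of Wwp2. No annotated gene other than the miRNA overlapped the miR-10a hairpin at chr11:96317165-96317274 (plus). The miR-425 hairpin lies at chr9:108568777-108568861 (plus) in an exon of the lincRNA gene 4833445I07Rik, and that of miR-101b at chr19:29135279-29135375 (plus) in an intron of Rcl1. The miR-106a hairpin lies at chrX:52742503-52742567 (minus) in an exon of Kis2, and the miR-29c hairpin at chr1:195037547-195037634 (plus) in an exon of A330023F24Rik, with exon sequence of Cd46 on the opposite strand.

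The libraries were not listed on one scale of positions. Reads matched to the hairpins showed that Position is the base of the mature miRNA at which the listed sequence begins, and that starts before base 1 were written as Position 1. The most common Position was 1 in DN3, 2 in DN4, DP and MEF, and 3 in the 8 remaining libraries (both single-positive populations, DN1, DN2 and the 4 from bone marrow). Sequences of those 8 libraries thus usually lacked the first 2 bases of the miRNA as listed. The most common start was taken to stand for the annotated 5′ end, and each shift and each seed was counted from it. Upstream shifts of up to 2 bases can be seen by Position where the common Position is 3. Where it is 2, a larger upstream shift is listed as 1 of 1 base. Reads that began before base 1 by sequence were 0.234% of mature reads in DN4, 0.283% in DP and 0.0339% in MEF. In DN3 no upstream shift can be seen by Position, and 0.308% of its mature reads began before base 1 by sequence yet were listed at Position 1. Mature reads numbered between 63386 in DN4 and 4572864 in DN3. The blood markers miR-142-3p and miR-142-5p summed to 8207 to 85573 RPM (reads per 1000000 mature reads) in the 11 blood libraries and to 159 in MEF. The mesenchymal list, which was at 14866 RPM in MEF, was at 178 (DP) to 12520 RPM (MPP) in blood. Its member miR-322 was at 11630 RPM in MPP and 288 in MEF. Its remaining members were higher in MEF, such as miR-199a-5p (8.41 RPM in MPP, 2984 in MEF), miR-214 (5.78 and 2271) and miR-31 (811 and 8667). The myeloid marker miR-223 was at 17609 RPM in DN1, 10296 in LMPP, 7461 in MPP and 5890 in LSK, at 869 or less in the other libraries, and at 0 in DN4. The erythroid list was at 4655 RPM in LMPP and 4652 in DN3, and at 19.1 (DP) to 1661 (LSK) elsewhere. Its members differed: miR-451 was at 3464 RPM in LMPP and 4258 in DN3, miR-144 at 137 and 301, and miR-486 at 1054 and 92.9. The liver marker miR-122 was at 4313 RPM in LMPP, 1234 in MPP and 1163 in LSK, and at 28.6 or less elsewhere. The epithelial list was at 6.48 (MEF) to 552 RPM (DN1), and the T lineage list at 6511 (MEF) to 557442 RPM (DP). The part of cells of other types in the results was not tested.

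Shifted reads made up a few percent at most of any library. Their share of the mature reads was 3.59% in CD8SP, 2.51% in DN1, 2.34% in CD4SP, 2.12% in DN4 (exact 95% Clopper-Pearson interval 2.00 to 2.23) and 2.01% in LMPP. It was 1.84% in MPP, 1.78% in LSK, 1.29% in ProB, 1.26% in DN2, 1.11% in DP, 1.04% in MEF and 0.984% in DN3. CD8SP was highest and DN3 lowest, and the DN4 interval was the widest. These intervals cover counting error only, since reads after PCR are not independent molecules.

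Direction separated the libraries more than the total did. Upstream shifts were 43.6% of the shifted reads in LSK, 43.7% in MPP and 51.2% in LMPP, against 89.7% in DN1, 92.8% in CD4SP and 92.9% in CD8SP, all listed from the same common Position. Downstream shifts of 1 base took 0.990% of all mature reads in LSK, 1.02% in MPP and 0.964% in LMPP, and 0.122% to 0.329% in the other 5 libraries of that Position. In LSK, with the hairpin table included, miR-10a held 8106 reads of this shift and miR-126-3p 7449. In the libraries of Position 3 miR-142-5p held 31.4% of all shifted reads of LSK, 30.3% of MPP, 30.6% of LMPP and 57.6% of ProB. It held 82.7% of those of DN1, 70.6% of DN2, 86.4% of CD4SP and 88.3% of CD8SP. In the libraries of other Positions its part was 12.8% in DN3, 10.6% in DN4 and 25.3% in DP, and 0 in MEF. The abundance of miR-142-5p differed as well, from 7215 RPM in LSK to 13291 in ProB, 38955 in DN1, 33363 in CD4SP and 60922 in CD8SP. The part of miRNA abundance in the contrast of direction was not tested. Without miR-142-5p the shifted share was 1.23% in LSK, 1.29% in MPP and 1.41% in LMPP, and 0.328% in CD4SP and 0.448% in CD8SP. Without it the 3 progenitor libraries lay above both single-positive libraries, and with it below them.

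**Figure D1:**
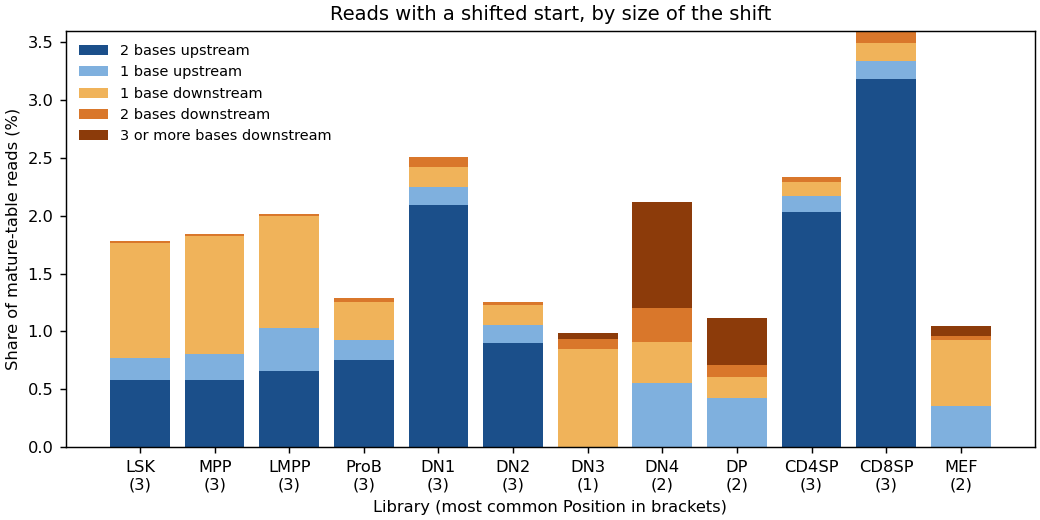
Share of mature-table reads with a shifted start in each of the 12 libraries (bars, stacked by the size and direction of the shift; the most common Position is in brackets). Reads 2 bases upstream take most of the bar in DN1, CD4SP and CD8SP, reads 1 base downstream the largest part of it in LSK and MPP, and DN3 can show no upstream shift by Position. In DN4, DP and MEF upstream shifts of more than 1 base are drawn as 1 base upstream.

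Few miRNAs had a large shifted share. A share of at least 10% was counted among miRNAs with at least 100 reads in the library. It was reached by 13 of 108 miRNAs in MEF (12%), 19 of 161 in ProB (11.8%), 19 of 163 in LSK (11.7%), 25 of 221 in DN3 (11.3%), 19 of 179 in CD4SP (10.6%), 17 of 161 in MPP (10.6%) and 16 of 151 in LMPP (10.6%). The counts were 9 of 86 in DP (10.5%), 15 of 157 in DN2 (9.55%), 15 of 157 in CD8SP (9.55%), 16 of 182 in DN1 (8.79%) and 4 of 61 in DN4 (6.56%). The median shifted share over the miRNAs counted was 0 in every library. In all, 61 miRNAs reached 10% in at least 1 library, 25 in at least 3 and 13 in at least 6.

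The miRNAs past 10% were largely shared by the libraries of Position 3. Of 122 miRNAs with 100 reads in all 8 libraries of Position 3, 7 reached 10% in every one, 110 in none, and 5 in some of them. The 7 were miR-126-3p, miR-142-5p, miR-339-3p, miR-345-3p, miR-345-5p, miR-425* and miR-467e. The 5 were miR-140*, miR-191*, miR-27b*, miR-322* and miR-34a.

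miR-142-5p comes from the 5′ arm of a hairpin expressed in blood cells. Its mature-table share, all of it upstream in the libraries of Position 3, was 77.3% in LSK (95% interval 76.5 to 78.0), 71.9% in MPP (71.2 to 72.6) and 68.0% in LMPP (67.0 to 68.9). It was 55.8% in ProB, 53.3% in DN1, 58.7% in DN2, 60.5% in CD4SP and 52.0% in CD8SP, on 33971 to 162074 reads each. The 3 stem and progenitor libraries lay above the other 5 of that Position, with no overlap of their intervals. MEF had under 100 reads of this miRNA.

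DN4 and DP listed lower mature-table shares for miR-142-5p, 30.1% and 42.9%, and part of their upstream reads was in the hairpin tables. DN3 listed 10.6%, all of it downstream, since its Position can show no upstream shift. When both tables were read by sequence, the first 16 bases of a read placing it on the hairpin, the form 2 bases upstream made up 35.6% of placed reads in DN3 (95% interval 35.3 to 35.9), and all of those DN3 reads were in the hairpin table. By the same count it made up 42.2% in DN4, 48.3% in CD8SP, 49.5% in DN1, 51.1% in ProB, 54.3% in DN2, 60.4% in DP, 60.7% in CD4SP (mature table only), 64.3% in LMPP, 67.9% in MPP and 74.1% in LSK. By sequence DN3 had the lowest value of this form, and the 3 progenitor libraries had the 3 highest. In DP and DN4 a read of this form was also listed under miR-142-3p and was split between the names. Counted in full for miR-142-5p, the mature-table share was 59.4% in DP and 46.3% in DN4. With such shared reads left out it was 3.92% in DP and 0 in DN4 (upper bound 1.12, on 328 reads, leaving aside sequences under the minimum). Nearly all of the counted mature-table shift in these libraries was thus in reads listed under both names.

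**Figure D2:**
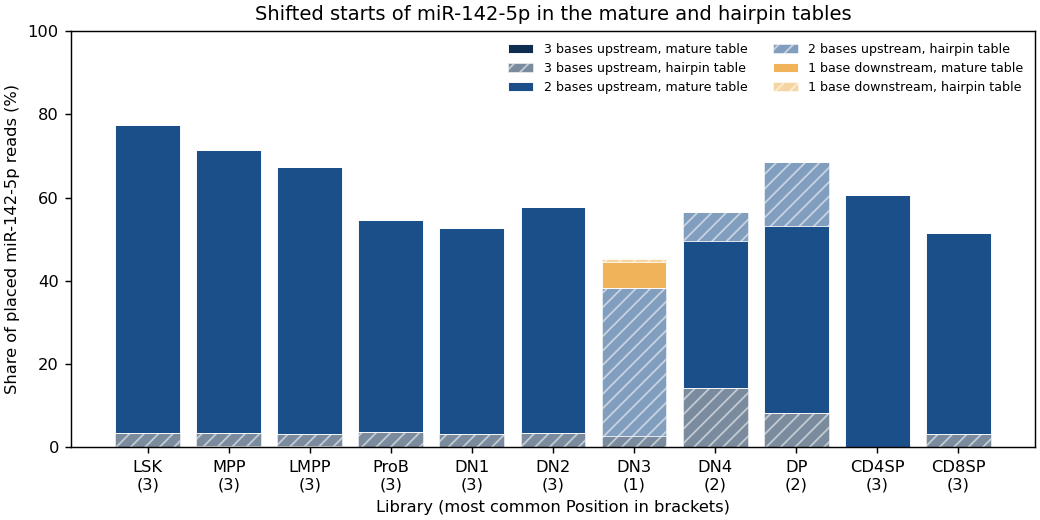
Share of placed miR-142-5p reads with each shifted start in the 11 blood libraries, from both tables by sequence (bars stacked by start; hatched parts come from the hairpin table; most common Position in brackets; no hairpin table of CD4SP was used). The form 2 bases upstream runs from 35.6% in DN3 to 74.1% in LSK, and in DN3 it stands wholly in the hairpin table.

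The upstream form of miR-142-5p was also shorter at its other end. Among reads without mismatch in DN1, the mean last base was base 18.9 for the form 2 bases upstream (SD 0.766 over reads) and base 21.0 for the usual start (SD 0.431). The corresponding means were 18.9 and 21.0 in CD8SP, 19.2 and 21.0 in LSK, and 19.2 and 20.9 in DN3. The means were 19.6 and 20.9 in DP and 19.7 and 20.9 in DN4. Over the 11 blood libraries the last base of the upstream form differed by -1.14 (DN4) to -2.14 bases (DN1) from that of the usual form, against a displacement of 2 bases at the 5′ end.

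The other strand, miR-142-3p, carried downstream shifts. By Position its share ran from 1.14% in DP and 1.22% in LSK to 4.05% in CD8SP and 4.44% in DN1. DN3 stood above them at 14.5% (14.2 to 14.8). By sequence in both tables the form 2 bases downstream was 1.03% in DP, 2.08% in CD4SP (mature table only), 2.51% in DN4, 3.42% in MPP, 3.71% in LSK, 5.78% in LMPP, 8% in ProB, 9.35% in CD8SP, 9.64% in DN2 and 10.4% in DN1. In DN3 starts 1, 2 and 3 bases downstream took 7.66%, 5.45% and 7.16%. The hairpin table held 63.2% of the DN1 reads of the form 2 bases downstream.

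miR-126-3p, an endothelial and progenitor miRNA, shifted 1 base downstream. The form 1 base downstream changed its seed from CGTACCG to GTACCGT. Its shifted share was 36.0% in LSK (35.3 to 36.7), 31.7% in MPP, 31.2% in LMPP, 30.7% in DN2, 28.9% in DN1 and 28.2% in ProB. It was 26.1% in CD4SP on 551 reads, 22.6% in CD8SP (17.3 to 28.7) on 221 reads, and 44.6% in DN3 (42.5 to 46.8). LSK lay above the other libraries of Position 3 and DN3 above LSK, with no overlap of intervals. The intervals of MPP, LMPP and DN2 overlapped, as did those of ProB, DN1 and CD4SP.

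miR-10a, encoded in a Hox gene cluster, had the same kind of shift. Its share was 21.7% in LSK (21.3 to 22.1), 20.9% in DN1, 20.7% in ProB, 19.5% in MPP, 18% in LMPP and 14.8% in DN2 (10.9 to 19.5). In MEF it was 42.2% (37.5 to 47.1) on 424 reads. In CD4SP no member of 10 reads was found among 140 reads of miR-10a, which allows a share of up to 2.60% by the exact interval, leaving aside sequences under the minimum. Its paralog miR-10b reached 34.4% (26.9 to 42.6) in MEF, with no member in LSK, LMPP or DN1 on 106 to 150 reads.

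miR-140* was shifted by 1 base downstream in every library where it had 100 reads. By Position the share was 3.69% in MPP, 5.81% in LMPP, 6.68% in DN1, 10.5% in CD4SP, 10.6% in CD8SP, 10.7% in LSK, 14.8% in ProB, 15.6% in DN2, 28.6% in DP and 63.0% in DN3. By sequence in both tables the form took a larger share, 34.4% in DN1, 36.2% in LMPP, 36.5% in MPP, 41.3% in CD8SP, 41.5% in ProB, 42.0% in LSK, 42.5% in DN2, 45.2% in DN4, 53.2% in DP, 58.9% in MEF and 66.8% in DN3. The hairpin table held 96.9% of these reads in LSK and 47.7% in DN3. In CD4SP, for which the mature table alone was used, it remained at 10.7%.

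**Figure D3:**
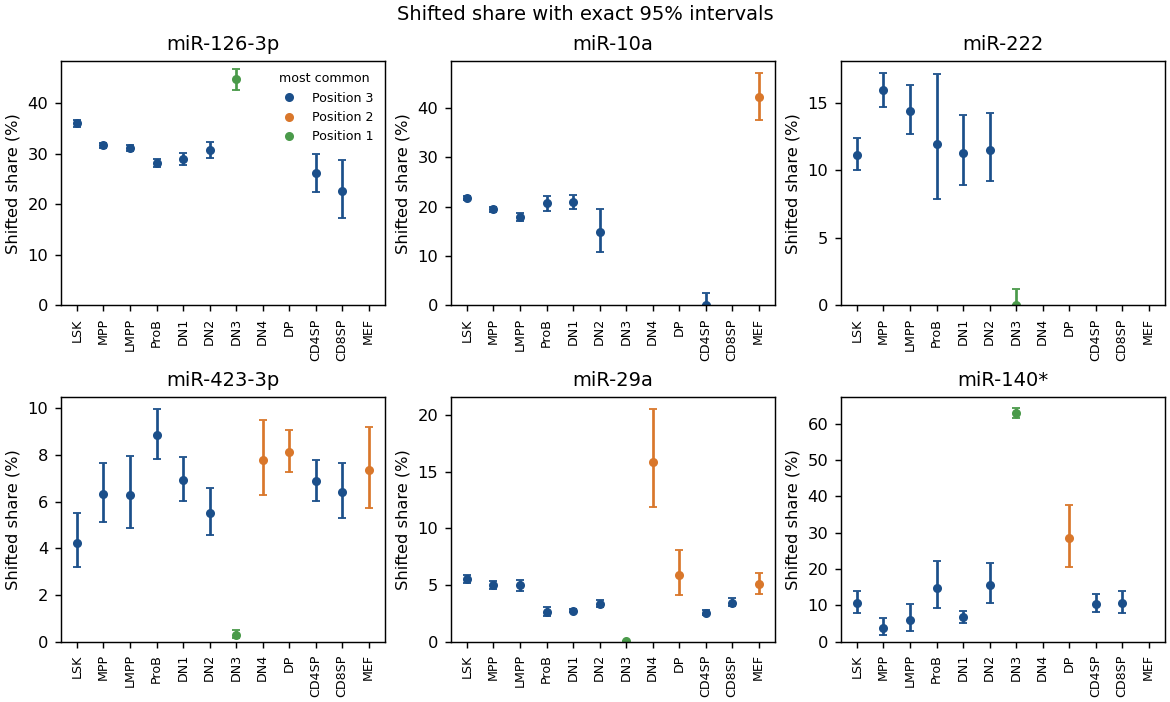
Shifted share of 6 miRNAs in the mature tables of the libraries where each had at least 100 reads (points, with exact 95% Clopper-Pearson intervals; colour gives the most common Position). miR-126-3p and miR-140* are highest in DN3 and miR-10a in MEF, while the upstream forms of miR-222, miR-423-3p and miR-29a are at or near 0 in DN3, where Position cannot show them.

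Upstream shifts of 1 base recurred across libraries in several miRNAs, at shares that differed between libraries. miR-423-3p had a share of 4.23% in LSK, 5.52% in DN2, 6.29% in LMPP, 6.31% in MPP, 6.40% in CD8SP, 6.88% in CD4SP, 6.93% in DN1, 7.34% in MEF, 7.77% in DN4, 8.14% in DP and 8.87% in ProB. These were all upstream. DN3 listed 0.277% by Position, all of it downstream, while by sequence its upstream form took 7.67%, against 4.36% (LSK) to 9.08% (ProB) for that form in the others. For miR-29a, of a family that targets collagen genes, the form 1 base upstream took 5.55% in LSK, 5.29% in MEF, 4.92% in LMPP and 4.83% in MPP by sequence. It took 3.41% in CD8SP, 3.27% in DN2, 2.93% in DN3, 2.75% in DN1, 2.68% in ProB, 2.54% in CD4SP and 2.26% in DP. The 3 progenitor libraries and MEF lay above these 7, with no overlap of intervals. In DN4 miR-29a had 15.9% by Position (11.9 to 20.5, on 296 reads), all of it downstream. miR-17, the first miRNA of the miR-17 cluster, had 1.86% to 2.45% by Position in the libraries of Position 3, mostly upstream. miR-222 had 11.2% in LSK, 15.9% in MPP, 14.4% in LMPP, 11.3% in DN1 and 11.5% in DN2 by Position. Read by sequence in both tables, where the mature table held 32.9% to 49.5% of its placed reads, the upstream form took 3.11% (DN2) to 6.54% (MPP). DN3 had no member on 293 reads, nor any such form by sequence.

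In several scarce strands most reads began at the shifted base. miR-425* lay 1 base upstream in 56.8% of its placed reads in DN3 and in 77.2% to 84.6% in the other 8 libraries with 100 reads. miR-345-5p had 60.6% (ProB) to 88.1% (CD4SP), with 71.7% in DN3, and by Position miR-345-3p had 65.3% to 76.4%. miR-150*, the minor strand of the lymphocyte miRNA miR-150, had 83.8% in DN1, 85.4% in CD4SP and 86.0% in CD8SP by Position. These 4 were chosen after their values were seen, as were miR-339-3p, miR-30e* and miR-29c below. miR-339-3p began 2 bases downstream in 14.6% to 32.1% of reads by sequence.

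RefSeq set the annotated 5′ end at base 1 for all 34 of the miRNAs with a share of at least 10% that could be compared with it. It differed from base 1 in 2 of the 180 other miRNAs compared. 

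miR-467e, miR-30e* and miR-203 shifted 1 base downstream and parted DN3 from the rest. miR-467e, of a cluster within Sfmbt2, had 87.7% to 95.7% by Position in the 8 libraries of Position 3 and 21.7% in DN3 (20.5 to 22.8, on 5172 reads). By sequence the DN3 value was 37.9%, against 92.5% to 98.5%. miR-30e* had 73.1% to 83.5% in 6 libraries and 3.34% in DN3 (2.45 to 4.43), and 3.53% there by sequence. miR-203, a miRNA of epithelium, had 82.4% in LSK, 76.5% in MPP and 47.5% in DN3, on 149 to 170 reads.

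miR-101b gave the converse. In DN3 the form 1 base upstream took 34.1% of placed reads (33.4 to 34.7) and the like form of miR-101a 43.4%, most of that in the hairpin table. In the mature table the miR-101b form was listed at Position 1, so it is not a member by the rule. In the libraries of Position 3, where it would show as Position 2, no sequence of at least 10 reads had it. The exact upper limit, leaving aside sequences under the minimum, ran from 0.0593% in DN1 to 0.193% in LMPP. RefSeq places the 5′ end of miR-101b-3p at this upstream base. The part of the library's processing in this difference, and in those of miR-467e and miR-30e*, cannot be told apart from the population, since DN3 is the only library of its kind.

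miR-29c and miR-1274a stood out in the libraries of Position 2. miR-29c had 80.7% in DN4 (72.5 to 87.3), 80.9% in DP (73.3 to 87.1) and 31.9% in MEF (24.1 to 40.6), on 122 to 136 reads. Its largest form, 3 bases downstream, had 51.8% of placed reads in DN4 and 58.0% in DP. DN1 had 0.202% on 4961 reads, and the other 8 libraries had no member. miR-1274a, known by Position alone since it could not be placed on a hairpin, had 52.0% in DN4, 54.3% in DP and 45.7% in MEF. It had 1.48% to 4.75% in the other 9. All 3 libraries share the Position 2 table and the lowest read totals, so that population and table cannot be told apart here.

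**Figure D4:**
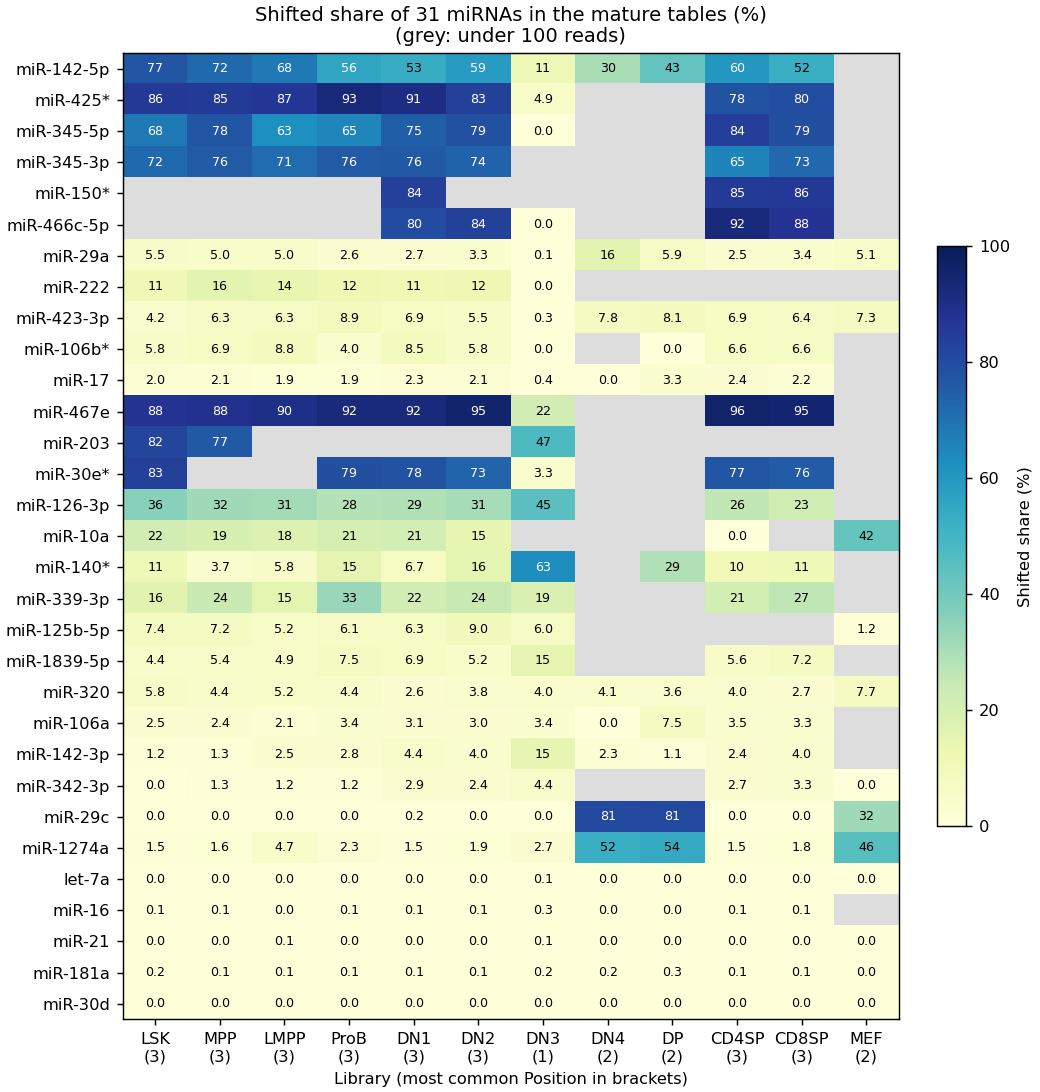
Shifted share (%, colour and number) of 31 miRNAs in the mature tables of the 12 libraries (columns; most common Position in brackets; grey marks under 100 reads). Rows from miR-142-5p to miR-17 shift mainly upstream, those from miR-467e to miR-1274a mainly downstream, and the last 5 are abundant miRNAs with almost no shifted reads.

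Families of abundant miRNAs had few shifted reads. The let-7 family with miR-98, whose members hold back proliferation genes, had 103 shares (a miRNA with 100 reads in a library), of which 0 reached 10%, beside 10.5% of the 1787 shares of all miRNAs. The highest was 3.53%, for let-7d in DN4. The miR-181 family, which tunes T cell receptor signalling, had 0 of 47, with a highest share of 1.01%, and the miR-30 family 0 of 50, with a highest of 0.291%. Of the miR-17 family 0 of 65 shares reached 10%, and the highest was 7.53% for miR-106a in DP. Of miR-150, miR-155, miR-146a, miR-21, miR-16 and miR-342-3p, 0 of 62 did, the highest being 4.39% for miR-342-3p in DN3. A list of 18 miRNAs known from other work for variable 5′ ends had 45 of 96 shares at or above 10% (46.9%). That list was chosen with earlier results of these data known, so its percentage is a description only. A miRNA counts anew in each library: miR-142-5p gave 11 of the 45, miR-126-3p 9, and miR-10a and miR-140* 7 each. Within the list miR-126-5p, miR-183, miR-101a and miR-101b had no share of 10% by Position, and miR-223 had at most 3.36%.

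Some shifted forms took the seed of another miRNA. Over 43 miRNAs named by the rule, 51 leading shifted forms were found by sequence, 15 upstream and 36 downstream. The seed of 10 of the 51, at bases 2 to 8, was also that of a mature mouse miRNA of another number in RefSeq. How often usual seeds are shared in this way was not counted, so the 10 have no background beside them. They are not all separate cases: miR-106a, miR-20b and miR-93 gave the same shifted seed, and miR-674 is among them with its upstream and its downstream form. miR-106a moved from AAAGTGC, the miR-17 family seed, to AAGTGCT, which miR-291a-3p, miR-294-3p, miR-295-3p, miR-302b-3p and miR-302d-3p of the embryonic stem cell clusters bear. This form took 2.15% of placed miR-106a reads in LMPP, 3.47% in DN3, 3.63% in CD4SP and 7.99% in DP (5.42 to 11.3). The same seed arose in miR-93 at 0.228% to 0.469% in DN3, DN4 and DP, and in miR-20b at 0.416% in DN3. The form of miR-342-3p 2 bases downstream had the seed of miR-672-3p and took 2.77% to 8.55% in 8 libraries. That of miR-674 1 base upstream had the seed of miR-713 and took 1.79% to 5.73% in 11. The form of let-7c 1 base downstream had the seed AGGTAGT of miR-196a-5p and miR-196b-5p, at 0.215% in ProB, 0.262% in DP and 0.962% in MEF. The larger forms of miR-142-5p, miR-126-3p, miR-10a and miR-140* had seeds that no other mature miRNA there bore at these bases.

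The first base changed as well. At their usual start 21 of the 43 miRNAs began with T (U in the RNA), 11 with A, 8 with C and 3 with G. Of the 51 shifted forms 13 began with T, 18 with A, 10 with C and 10 with G. Among all miRNAs placed on a hairpin with 100 reads in a library, 157 of 278 lay on the 5′ arm (56.5%), and of those with a share of at least 10% 22 of 53 did (41.5%).

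The 3′ ends followed the 5′ ends in part. For 11 upstream forms with at least 100 reads without mismatch, the last base lay a median of 0.485 bases before that of the usual form, and 5 ended over 0.5 bases earlier and 0 later. For 26 downstream forms it lay a median of 0.475 bases later, and 12 ended over 0.5 bases later and 0 earlier. The gel cut of 19 to 24 nt and the division of reads between the tables bear on both ends. Shifted reads matched their hairpin without mismatch in 85.2% to 92.9% of cases in the 8 libraries of Position 3, against 79.5% to 84.6% of reads at the common Position in sequences of at least 10 reads. The order was the other way in DN3 (70.6% against 77.3%), DN4 (57.9% against 88.7%), DP (68.8% against 89.4%) and MEF (85.4% against 87.4%). Reads that could not be placed on a hairpin, such as those of miR-1274a, counted as not matching. These percentages therefore do not measure mismatches alone, and the part of unplaced names in the order was not tested.

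Neighbouring stages were compared by a rule of size: the higher share at least 5%, and its lower 95% bound over 2 times the upper bound of the lower share. Among pairs with the same common Position, 1 of 155 miRNAs differed between LSK and MPP (0.645%), 1 of 143 between MPP and LMPP (0.699%), 2 of 139 between LMPP and ProB (1.44%), 1 of 143 between LMPP and DN1 (0.699%), 1 of 152 between DN1 and DN2 (0.658%), 3 of 60 between DN4 and DP (5%) and 1 of 153 between CD4SP and CD8SP (0.654%). Pairs of different Position gave more: 23 of 154 between DN2 and DN3 (14.9%), 7 of 61 between DN3 and DN4 (11.5%) and 6 of 81 between DP and CD4SP (7.41%). Summed, that was 10 of 945 in the 7 pairs of like Position and 36 of 296 in the other 3 (1.06% and 12.2%). The number of calls thus moved with the Position of the tables, and the part of cell stage in the calls across Positions was not tested.

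Within like Positions miR-34a, a miRNA induced by p53, was called in 2 pairs. Its upstream share by Position was 3.40% in LSK, 2.24% in MPP (1.33 to 3.51), 11% in LMPP (8.32 to 14.2) and 0.367% among ProB reads (0.242 to 0.533), then 5.86% in DN1, 7.90% in DN2, 10.3% in CD4SP and 16.6% in CD8SP. ProB had 7360 reads of miR-34a and LMPP 473. Reads placed on the hairpin by sequence gave no leading shifted form of miR-34a in any library, so these shares rest on Position alone. The other calls of like Position were let-7d* (0 in LSK, 5.59% in MPP), miR-191* (0 in LMPP, 11.3% in ProB), miR-27b* (7.33% in LMPP, 0 in DN1, 8.88% in DN2), and miR-106a, miR-378* and miR-425 (0 in DN4, 7.53%, 10.2% and 6.59% in DP). The last was miR-466h (7.42% in CD4SP, 0 in CD8SP). Of these, let-7d*, miR-191*, miR-27b*, miR-425 and miR-466h were chosen after their values were seen. Where one library listed 0, sequences under 10 reads were not counted, and the minimum is a larger share of a miRNA's reads in DN4 than in a deep library.

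**Figure D5:**
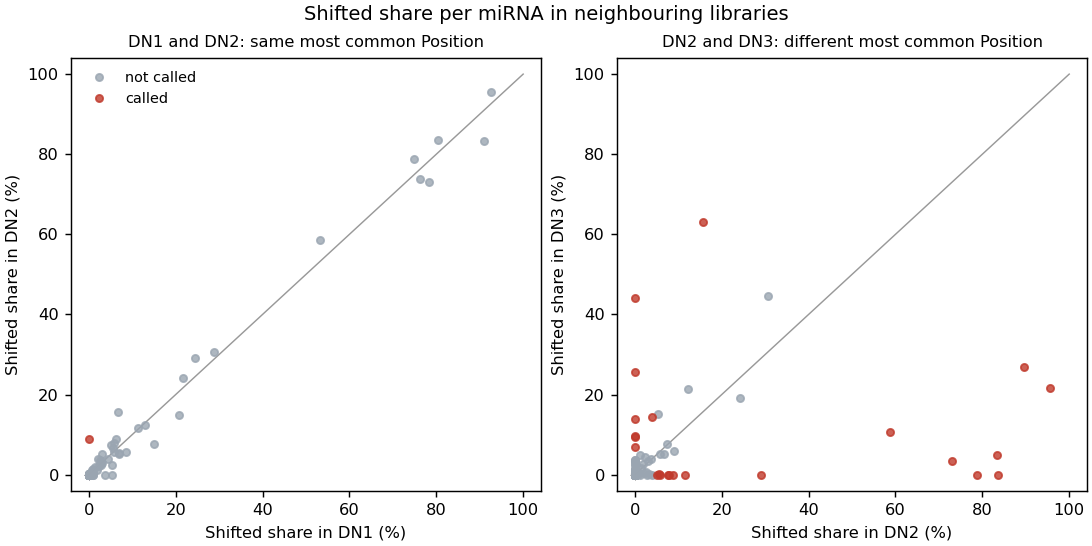
Shifted share of each miRNA with at least 100 reads in both libraries (points; called miRNAs in red; the line marks equal shares) for DN1 against DN2 and DN2 against DN3. With the same common Position 1 of 152 miRNAs is called and the points follow the line, and with different ones 23 of 154 are called.

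The minimum of 10 reads was reached exactly by 5 (DN4) to 33 (DN3) entries per library at another Position, and 1 (DN4) to 41 (DN3) entries had 9 reads and stayed out. Entries under the minimum held 0.0890% (CD4SP) to 1.28% (DN4) of the mature reads.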

How the data were processed

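Per the labels' protocols, small RNA was size-fractionated (19 to 24 nt) and ligation required a 5′ phosphate and 3′ hydroxyl. How reads were trimmed and aligned, with which miRNA release, mismatches and build, is not given in the sources. The deposited tables list each sequence with its miRNA, length, Position and raw read count, per the file headers, with no normalisation. In CD8SP the mature and hairpin tables carried each other's names and were told apart by the names within. No hairpin table of CD4SP was used here, and some lines of the tables were not used here.

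A sequence listed under several names was split equally. Shares were taken in miRNAs with at least 100 reads, with exact Clopper-Pearson 95% intervals, and no test was made, since there was 1 library per population. Reads were placed on RefSeq (GRCm38) and GENCODE M21 hairpins by their first 16 bases, within 6 bases of the mature start, for 503 of 548 names. Members and lists were chosen with earlier results of these data known. Named miRNAs had 1000 reads in at least 3 libraries and were the 15 of highest median share, the 3 with most shifted reads per library, the 10 widest ranges within a Position, the 5 lowest of the 20 most abundant, and the listed families. The scripts were tested on simulated shares. Python 3.11.15, pandas 2.3.3 and SciPy 1.17.1 were used. Alternatives were each miRNA's own common Position, the RefSeq 5′ end, other minimums, other treatment of shared sequences, perfect matches, both tables, thinning, and other call limits.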

Additional observations from a re-analysis of the deposited data

How the results depend on the processing

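Summed over the 12 libraries, 1.92% of mature reads were shifted, and 2.31% of those of the miRNAs named by the rule. These 2 shares became 1.52% and 1.88% against each miRNA's own common Position, 2.15% and 2.63% against the RefSeq 5′ end, 2.06% and 2.42% with no minimum, 1.67% and 2.10% with sequences of at least 100 reads, 1.90% and 2.30% without sequences of several names, 2.12% and 2.61% with perfect matches, 2.38% and 2.91% with the hairpin table, and 2.12% and 2.59% without DN3. Giving such sequences to the hairpin they match (chosen after seeing the data, as was leaving out DN3 or DN4) gave 1.93% and 2.32%, and counting them in full 2.32% for the named miRNAs. The first share was 1.84% with a minimum of 10 RPM, 1.48% after thinning to 63386 reads, and 0 as a median over miRNAs. The 2820 members became 23126 with no minimum, 343 at 100 reads, 1604 with perfect matches and 164 after thinning. The 187 shares of at least 10% became 75 with sequences of at least 100 reads, 293 with miRNAs of 30 reads, 39 with miRNAs of 1000 reads, 282 at 5%, 120 at 25% and 24 after thinning, where the minimum of 10 reads was kept. The 46 calls between neighbours became 29 at 4 times, and 16 without DN3. The 10 forms with the seed of another miRNA became 21 at bases 2 to 7. Depth limits DN4 most. No paired analysis was possible because the labels give no replicate numbers and each population has 1 library.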

Other observations

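Several names with high shifted shares, miR-1274a among them, could not be placed on a hairpin of RefSeq or GENCODE M21. Only their Position is known, and those given here were chosen after their values were seen. miR-2142 had 93.4% of its reads upstream in LMPP, 83.8% in ProB and 89.6% in DN2, 26.9% downstream in DN3, and no member in DP on 117 reads. miR-2143 had 75.7% in LSK, 82.5% in MPP, 49.7% in LMPP and 71.2% in DN1, all upstream. miR-1937a had 84.7% downstream in DN3 and 23.7% upstream in DP, whereas miR-1937b had none in DN3 and 93.3% upstream in DP.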
